A study of Mus musculus with 4 samples.

Results

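The genes described here encode the heat shock proteins with their co-chaperones and the sensors, transcription factors, folding enzymes and degradation factors of the endoplasmic reticulum (ER) stress response. A probe set belonged to the set when the array platform's annotation gave it a single gene symbol that begins as an Hspa, Hspb, Hspd, Hspe, Hsph, Dnaja, Dnajb, Dnajc or Pdia name followed by a number (1 such gene is not analysed here), or that is Hsp90b1, Hsf1, Xbp1, Atf4, Atf6, Ddit3, Ern1, Eif2ak3, Herpud1, Sel1l, Edem1, Syvn1 or Trib3. By this rule 149 of 22626 probe sets were members, which represent 73 of the 12393 genes with a probe set of a single symbol. No probe set carried the symbol Hsf1 alone, so Hsf1 was not analysed here. Of the members, 109 probe sets of 63 genes reached the signal needed for testing, a geometric mean of 115.38 over the 4 arrays. The other 40 probe sets had signals of 168.1 or less on every array, and 10 genes were represented only by such dim probe sets, namely Pdia5, Hspa12b, Hspa1l, Hspb3, Dnaja4, Dnajb3, Dnajb7, Dnajb13, Dnajc17 and Dnajc24. Counts and medians below are over the 109 tested probe sets.

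The study measured messenger RNA in primary mouse Langerhans cells, the dendritic cells of the epidermis, after exposure of the animals to TCDD (2,3,7,8-tetrachlorodibenzo-p-dioxin), a dioxin that activates the aryl hydrocarbon receptor. Mice received 10 µg TCDD in 100 µl of DMSO and oil, or the vehicle alone, by intraperitoneal injection, and the cells were isolated 24 h later at a stated sorting purity of 95%. The labels give neither strain nor age, and nothing in them says whether an array stands for 1 animal or a pool. No array is repeated within the same treatment and skin source. The p-values here therefore rest on how far the pairs of control and TCDD samples disagreed and on the variance of the other probe sets. Part of that spread among the 4 samples may be technical. Control 1 and TCDD 1 come from skin with no site named, and control 2 and TCDD 2 from back skin. Site and experiment cannot be told apart in this design, and both are called preparation here. For control 2 the title and description say control, whereas its treatment field names TCDD, so the TCDD comparison was also made without it. The RNA was amplified from its polyadenylated end before biotin labelling and hybridisation to 1 Affymetrix array per sample, and 4 arrays leave only 1 residual degree of freedom per probe set, which limits the precision of every difference.

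Heat shock proteins are chaperones that bind unfolded protein. HSP70 proteins work in cycles of ATP hydrolysis that J-domain proteins (Dnaj) start and that HSP110 proteins (Hsph1, Hspa4) help to complete by exchanging the nucleotide, while small heat shock proteins hold clients without ATP. Under heat or proteotoxic stress, heat shock factor binds heat shock elements and raises the inducible members such as Hspa1a and Hspa1b. In the ER, unfolded protein frees the HSP70 chaperone BiP (Hspa5) from the sensors IRE1 (Ern1), PERK (Eif2ak3) and ATF6 (Atf6). IRE1 splices the Xbp1 messenger, PERK signalling favours translation of Atf4 and through it expression of Ddit3 (CHOP) and Trib3, and cleaved ATF6 enters the nucleus, after which ER chaperones and the degradation machinery are made in larger amounts. The arrays measure transcript amount and cannot show the splicing, phosphorylation or cleavage steps.

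The promoter sequences through which these responses are known to act were searched in RefSeq windows of 300 bases, from 250 before to 50 after each annotated start, on build GRCm38.p6. Windows were found for 62 of the 73 member genes, 76 windows in all, and were set beside the 32851 windows of all genes. The ER stress element, CCAAT and CCACG separated by any 9 bases on either strand, lay in 5 of the 76 member windows (6.58%) and in 0.119% of all windows. Its 5 genes were the ER chaperones Hspa5 and Hsp90b1 (GRP94), the disulfide isomerase Pdia6, the BiP co-chaperone and PERK inhibitor Dnajc3 and the ubiquitin ligase Syvn1. The sequences below show each match in capitals with 25 bases on either side, written 5′ to 3′ on the strand of the gene. They are shown because the TCDD differences of these genes are set side by side below. Hspa5 is at chr2:34772000-34772068 on the plus strand, Hsp90b1 at chr10:86705613-86705681 and chr10:86705508-86705576 on the minus strand with the second match in reverse orientation, Pdia6 at chr12:17266466-17266534 on the plus strand, Dnajc3 at chr14:118937802-118937870 on the plus strand and Syvn1 at chr19:6046507-6046575 on the plus strand.
Hspa5: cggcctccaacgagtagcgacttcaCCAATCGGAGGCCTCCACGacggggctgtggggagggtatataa
Hsp90b1, first match: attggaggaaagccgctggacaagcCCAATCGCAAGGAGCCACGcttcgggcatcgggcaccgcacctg
Hsp90b1, second match: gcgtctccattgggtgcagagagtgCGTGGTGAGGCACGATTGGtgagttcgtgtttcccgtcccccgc
Pdia6: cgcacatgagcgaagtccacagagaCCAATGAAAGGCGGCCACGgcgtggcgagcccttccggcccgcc
Dnajc3: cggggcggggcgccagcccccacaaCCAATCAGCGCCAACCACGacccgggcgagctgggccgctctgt
Syvn1: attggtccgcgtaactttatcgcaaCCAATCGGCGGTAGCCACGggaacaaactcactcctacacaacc

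A heat shock element, written as GAANNTTC or TTCNNGAA with N for any base, lay in 17 of the 76 member windows (22.4%) and in 15.1% of all windows. These belonged to 15 genes, namely Dnaja1, Dnaja4, Dnajb4, Dnajb6, Dnajc10, Dnajc27, Eif2ak3, Hspa1a, Hspa1b, Hspb1, Hspb3, Hspb8, Hspd1, Hspe1 and Hsph1. The inducible HSP70 genes Hspa1a (chr17:34972228-34972285, minus strand) and Hspa1b (chr17:34959310-34959367, minus strand) have the same printed stretch, and their windows differ at 4 of 300 bases. The mitochondrial co-chaperonin gene Hspe1 (chr1:55088034-55088101, plus strand) has 3 overlapping matches, and 285 bases of its window are shared with a window of the chaperonin gene Hspd1, which is read in the opposite direction. These are shown, with the matches in capitals, because both pairs are compared below.
Hspa1a: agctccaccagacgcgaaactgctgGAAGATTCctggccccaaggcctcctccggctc
Hspa1b: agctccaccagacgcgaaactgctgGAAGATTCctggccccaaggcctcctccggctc
Hspe1: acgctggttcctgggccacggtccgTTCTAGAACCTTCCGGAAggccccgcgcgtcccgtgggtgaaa

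Further motifs were at their genome-wide frequency or not found in the member windows. The C/EBP-ATF motif TGATGNAA lay in 3 of 76 member windows (3.95%), those of Herpud1, Hspa14 and Trib3, against 3.97% of all windows. The XBP1 motif TGACGTGG lay in 0 of 76, against 0.676% of all windows. A match describes these letters only, and protein sequences of the members were not analysed here.

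The arrays differed in ways that the groups do not explain. Every array had a trimmed mean signal of 500.0, and the median signal ranged from 164.9 to 188.1. The ratio of 3′ to 5′ probe sets for actin, which rises when RNA is broken or short after amplification, was 49.67 on control 1 and 3.48 to 7.71 on the other arrays, and the Gapdh ratio was 106.83 against 9.55 to 15.92. All 11 listed Langerhans cell markers passed the signal filter, with a summed signal of 40141 on control 1 and 48857 to 62142 on the others, and langerin (Cd207) read 2119.9 and 7210.5 on the controls and 5343 and 2155 on the TCDD arrays. T cell markers, of which 7 of 10 listed were measured, summed to 2003 on TCDD 1 and 2515 on control 2, but to 1445 on control 1 and 1478 on TCDD 2. Keratinocyte markers summed to 1338 to 1950.5 and melanocyte markers to 609 to 886. Of 6 listed fibroblast and endothelial and 6 listed mast cell and granulocyte markers only 2 each passed the filter. Summed over all 6 of each list, dim markers included, they gave 631 to 1025 and 416 to 691.

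After TCDD, no heat shock or ER stress gene passed the test once p-values were adjusted over all probe sets. None of the 109 member probe sets had an adjusted p under 0.05 (limma with treatment and preparation as terms, Benjamini-Hochberg over all 13576 tested probe sets), where 0.0% of all tested probe sets were called and the smallest adjusted p was 0.9999. At an unadjusted p under 0.05 there were 2 members, 1 higher and 1 lower, and 199 of all probe sets. The median log2 difference of the members, TCDD minus control, was 0.001, with quartiles of -0.20 and 0.16, and that of all tested probe sets was -0.006. Fold changes of at least 2 were fitted for 2 members (1.83%), against 1.72% of all probe sets. The 95% interval of a typical member reached 0.80 on the log2 scale to either side, so a fitted difference within that bound could not be told from 0. This interval is not adjusted for the number of probe sets. Over all tested probe sets the fitted differences ranged from -2.21 to 2.55 and none passed, so larger differences could be missed as well.

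Counted without a model, both TCDD arrays lay above both controls in 16 of 109 members (14.7%), against 12.4% of all tested probe sets. In 13 members (11.9%) both TCDD arrays lay below both controls, against 13.2% of all. Both shares were near the background. With each gene represented by its brightest probe set, 10 of 63 genes lay above and 8 below, against 11.4% and 14.1% of 8413 genes. In the following, a difference is the fitted log2 difference, TCDD minus control, with its standard error (SE) from the limma fit over 2 arrays per group, signals are MAS5 signals in arbitrary units with the preparation without a named site given first, and no adjusted p passed the threshold.

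The ER stress sensors and transcription factors were the role with the highest median difference, 0.28 over 12 probe sets, with a range of -0.39 to 1.06. Of the 12, 4 were probe sets of Xbp1. Control 1 was the lowest array in every tested probe set of Xbp1, Atf4, Ddit3, Ern1 and Trib3, and the highest in those of Atf6 and Eif2ak3. The part of control 1 in this median was not tested. The direction of the TCDD difference was not shared by the preparations. Without a named site, the median signal of the role was 540.5 after TCDD, higher than the 326.4 of its control. In back skin the median signal was 491.7 after TCDD, lower than the 575.4 of its control. The TCDD ratio changed sign between preparations in 7 of the 12 probe sets, against 59.3% of all tested probe sets. Both TCDD arrays were above both controls in 4 of the 12 and below in 0, and the other 8 overlapped; over all tested probe sets, against which the counts of the other roles can be read too, the shares were 12.4% and 13.2%. Trib3, a pseudokinase that CHOP induces and that inhibits AKT, read 334 and 342 on the controls and 473 and 551 on the TCDD arrays. The groups did not overlap and were similarly far apart in both preparations, with a difference of 0.60 ± 0.34 (95% interval -0.17 to 1.36). Its second probe set, 126 and 307 on the controls and 316 and 187 on the TCDD arrays, was higher with TCDD without a named site and lower in back skin (0.31 ± 0.50). Atf4, the transcription factor translated when PERK is active, read 5231 and 5509 on the controls and 5517 and 7841 on the TCDD arrays, so that TCDD 2 stood above the rest and TCDD 1 was level with control 2 (0.29 ± 0.32). For Ern1, the sensor IRE1, signals were low, 119.8 and 138 on the controls and 145 and 165 on the TCDD arrays, and did not overlap (0.27 ± 0.43).

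Xbp1, the target of IRE1 and a transcription factor for ER chaperones, had the highest fitted difference among the members. Its probe set 1420011_s_at read 249 and 645 on the controls and 958 and 725 on the TCDD arrays, a difference of 1.06 ± 0.45 with an unadjusted p of 0.046. Control 1 was the lowest array in all 4 Xbp1 probe sets, whereas control 2 lay close to the TCDD arrays. The brightest probe set, 1437223_s_at, read 1247 and 2811 on the controls and 3061 and 2746 on the TCDD arrays (0.63 ± 0.40), and 1420886_a_at read 864 and 1890.3 on the controls and 1786 and 1496 on the TCDD arrays (0.36 ± 0.41). In 1420012_at control 2 was the highest array, at 271 and 451 on the controls and 405 and 366 on the TCDD arrays (0.14 ± 0.37). Within back skin alone, the log2 ratio of TCDD 2 to control 2 ranged over these probe sets from -0.34 to 0.17. The actin and Gapdh ratios set control 1 apart as well, and it was at least 2-fold below every other array in 3.03% of all tested probe sets and in 4 members, namely 2 probe sets of Xbp1, 1 of Hsp90b1 and 1 of Hspb8. The part of RNA quality in these values was not tested.

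The other 3 genes of this role had fitted differences below 0, those of Atf6 and Ddit3 well within their SE. Eif2ak3, the sensor PERK, read 814 and 506 on the controls and 553 and 432 on the TCDD arrays, lower on TCDD within each preparation although the groups overlapped (-0.39 ± 0.34). Atf6 read 319 and 233 on the controls and 251 and 262 on the TCDD arrays (-0.09 ± 0.36). Ddit3, which encodes the transcription factor CHOP, read 307 and 750.4 on the controls and 528 and 421 on the TCDD arrays. TCDD 1 was above its control and TCDD 2 below its own, and the difference was -0.02 ± 0.43, with a 95% interval of -1.01 to 0.96.

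**Figure D1:**
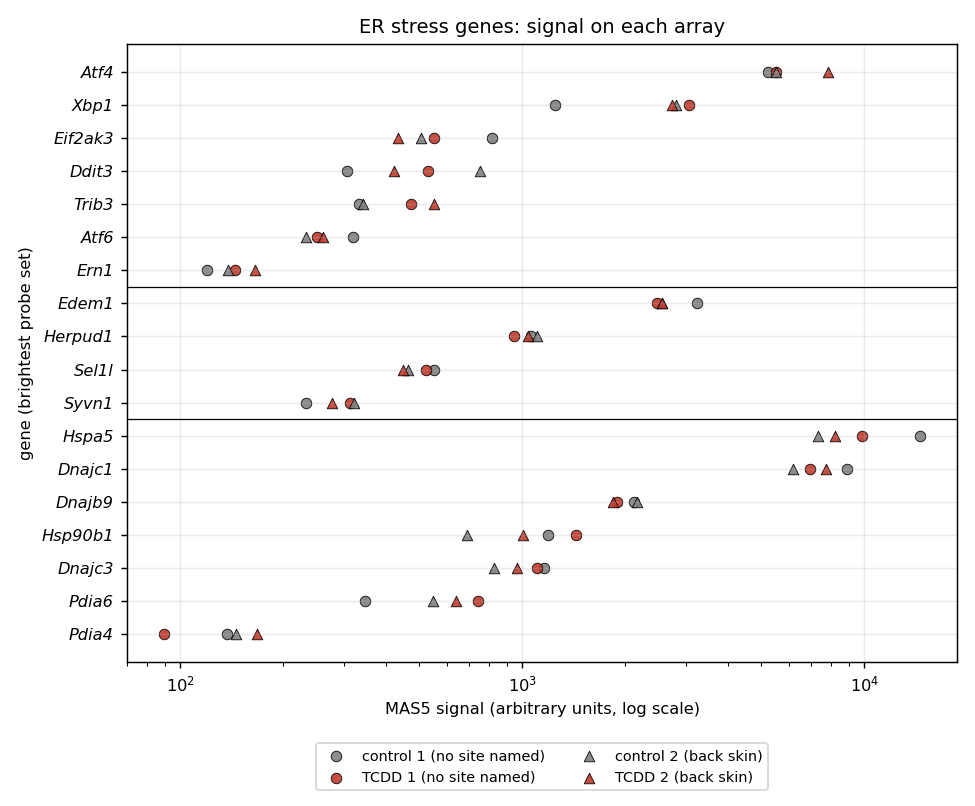
MAS5 signal (arbitrary units, log scale) of ER stress genes on each of the 4 arrays, 1 point per array for the brightest probe set of each gene; lines separate, from the top, sensors and transcription factors, degradation factors, and chaperones. Grey points are controls, red points TCDD, circles no named site and triangles back skin; Trib3 has both red points to the right of both grey ones, and control 1 lies apart at the left for Xbp1 and at the right for Hspa5.

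ER chaperones and folding enzymes centred on a difference of -0.03 over 18 probe sets, between -0.61 and 0.68, and 14 of the 18 overlapped between groups. Hspa5 (BiP), the most used readout of ER stress, read 14504 and 7333 on the controls and 9865 and 8224 on the TCDD arrays. The controls were both the highest and the lowest array, and the difference was -0.20 ± 0.32 with a 95% interval of -0.92 to 0.53. Its second probe set, 2306 and 1057 on the controls and 2032 and 1137 on the TCDD arrays, gave -0.04 ± 0.34. Dnajc3 read 1159 and 824 on the controls and 1105 and 966 on the TCDD arrays (0.08 ± 0.34). In its probe set 1449372_at control 1 was low, as for Xbp1, at 332 and 584 on the controls and 849 and 542 on the TCDD arrays (0.62 ± 0.42). Dnajb9 (ERdj4), a J-domain partner of BiP, read 2125 and 2168 on the controls and 1894 and 1845 on the TCDD arrays, lower on both TCDD arrays by a small amount (-0.20 ± 0.33). Dnajc1, a J-domain protein of the ER membrane, read 8895 and 6192 on the controls and 6916 and 7707 on the TCDD arrays (-0.02 ± 0.32). Pdia4, a disulfide isomerase, was dim at 137 and 146 on the controls and 89.8 and 167 on the TCDD arrays, and its groups overlapped (-0.21 ± 0.46).

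For Hsp90b1 and Pdia6 the probe sets of 1 gene disagreed. The brighter Hsp90b1 probe set, 1415889_a_at, read 1187 and 688 on the controls and 1432 and 1002 on the TCDD arrays, higher on TCDD within each preparation, with groups that overlapped (0.41 ± 0.34). The other, 1438040_a_at, read 265 and 921 on the controls and 1084 and 577 on the TCDD arrays, with log2 ratios of 2.03 without a named site and -0.67 in back skin and a difference of 0.68 ± 0.57. Pdia6 read 346 and 546 on the controls and 741 and 642 on the TCDD arrays in its brighter probe set, without overlap (0.66 ± 0.37, 95% interval -0.17 to 1.50). Its dimmer probe set, 1430983_at, lay the other way, also without overlap, at 148 and 168 on the controls and 105 and 116 on the TCDD arrays (-0.51 ± 0.44). The 5 genes with an ER stress element in their printed promoters, Hspa5, Hsp90b1, Pdia6, Dnajc3 and Syvn1, thus had differences of -0.20, 0.41, 0.66, 0.08 and 0.11 in their brightest probe sets, of which Pdia6 alone did not overlap between groups.

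ER-associated degradation, which returns misfolded protein to the cytosol for the proteasome, had a median difference of -0.06 over 8 probe sets. Herpud1, an ER membrane protein of this machinery, read 1062 and 1102 on the controls and 943 and 1037 on the TCDD arrays, lower with TCDD (-0.13 ± 0.34), while its other probe set read 927 and 998 on the controls and 1118 and 1002 on the TCDD arrays, higher with TCDD (0.14 ± 0.34); both were free of overlap and both gaps were small. Edem1, which marks glycoproteins for degradation, read 3241 and 2554 on the controls and 2473 and 2552 on the TCDD arrays, and only control 1 stood apart (-0.20 ± 0.34). Syvn1 (HRD1), the ligase, read 232 and 322 on the controls and 313 and 277 on the TCDD arrays (0.11 ± 0.36). Its adaptor Sel1l read 553 and 463 on the controls and 522 and 448 on the TCDD arrays (-0.07 ± 0.34), and the third Sel1l probe set, 1453559_a_at, read 211 and 242 on the controls and 155 and 141 on the TCDD arrays, lower with TCDD without overlap (-0.61 ± 0.39).

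**Figure D2:**
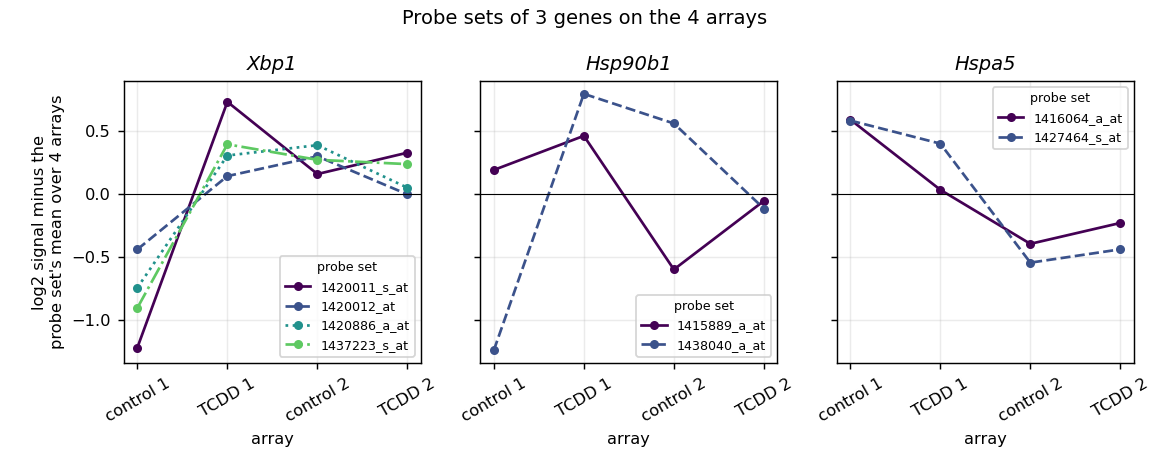
Log2 signal of each tested probe set of Xbp1, Hsp90b1 and Hspa5 minus its own mean over the 4 arrays (horizontal axis), 1 line per probe set. All 4 Xbp1 lines are lowest on control 1, the 2 Hsp90b1 lines part on control 1 and control 2, and both Hspa5 lines are lower on the back skin arrays (control 2 and TCDD 2) than on the others.

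Cytosolic and nuclear HSP70 and HSP110 genes had a median difference of -0.10 over 18 probe sets, and 14 of the 18 overlapped between the groups. Hspa1a, the inducible HSP70 and a standard marker of the heat shock response, read 1559.7 and 1183 on the controls and 1254 and 1487 on the TCDD arrays. TCDD was lower in the preparation without a named site and higher in back skin, and the difference was 0.01 ± 0.36, with a 95% interval of -0.80 to 0.82. Hspa1b, its near-identical copy, read 4262 and 3962 on the controls and 3423 and 4313 on the TCDD arrays (-0.10 ± 0.33). Its other probe sets gave -0.34 ± 0.36 and, for 1427127_x_at, -0.67 ± 0.39, where TCDD 2 was lowest at 989.7 and control 2 highest at 2288. Because the copies share most of their sequence, which of them a probe set measured is uncertain.

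Hspa8, the constitutive HSP70, read 27641 and 33407 on the controls and 26176 and 35329 on the TCDD arrays, a difference of 0.001 ± 0.25 (95% interval -0.57 to 0.58). The HSP110 gene Hsph1 read 7845 and 4583 on the controls and 4785 and 4884 on the TCDD arrays, with control 1 above the other 3 (-0.31 ± 0.34), while its dimmer probe set read 383 and 334 on the controls and 539 and 417 on the TCDD arrays without overlap (0.41 ± 0.34). Hspa2, an HSP70 best known from the testis, read 244 and 257 on the controls and 204 and 105 on the TCDD arrays (-0.77 ± 0.42). It was the lowest on TCDD 2, and TCDD 1 was nearer to the controls than to TCDD 2. Hspa4, another HSP110, differed between probe sets. The probe set 1416147_at had the highest difference of this role, 1.05 ± 0.51, from signals of 303 and 60.5 on the controls and 309.7 and 255 on the TCDD arrays, in which control 2 alone was low. The brightest Hspa4 probe set, 1416146_at, read 5082 and 2373 on the controls and 2627 and 3233 on the TCDD arrays (-0.25 ± 0.40). The third, 1435194_at, was almost level, at 2402 and 2068 on the controls and 2274 and 2216 on the TCDD arrays (0.01 ± 0.33).

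The J-domain co-chaperones of cytosol and nucleus, the largest role with 35 tested probe sets, had a median difference of -0.06 and a range of -0.96 to 0.56. TCDD lay above in 5, below in 4 and overlapped in 26. Dnajb1 (HSP40), the main partner of inducible HSP70, read 3718 and 3913 on the controls and 3576 and 3919 on the TCDD arrays, and its difference of -0.03 ± 0.32 had a 95% interval of -0.76 to 0.70. Dnaja1 read 6880.5 and 5140.3 on the controls and 5634 and 5022 on the TCDD arrays (-0.16 ± 0.31). Dnajb12, which is anchored in the ER membrane with its J domain in the cytosol, read 488 and 297 on the controls and 251 and 169.9 on the TCDD arrays. TCDD was lower in both preparations without overlap, and this was the member with the lowest unadjusted p, 0.032, at a difference of -0.88 ± 0.35 (95% interval -1.67 to -0.10).

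Among the other J-domain genes, Dnajc12 read 2261 and 2876 on the controls and 1974 and 1293 on the TCDD arrays (-0.67 ± 0.37) and Dnajc8, a nuclear protein found with spliceosomes, read 11202 and 10410 on the controls and 8378 and 10031 on the TCDD arrays (-0.24 ± 0.30). In both, TCDD was lower without overlap. Dnajb5 read 341 and 265 on the controls and 383 and 366 on the TCDD arrays, higher with TCDD without overlap (0.32 ± 0.34), but its second probe set, 1421962_at, read 168 and 346 on the controls and 275 and 55.9 on the TCDD arrays, with TCDD 2 at least 2-fold below every other array (-0.96 ± 0.69). That pattern was found in 1 member and in 0.597% of all probe sets. Dnajc2, a ribosome-associated co-chaperone, gave -0.46 ± 0.38 in its brightest probe set and 0.56 ± 0.35 in 1448794_s_at. Of the 30 member genes with at least 2 tested probe sets, the sign of the difference varied between probe sets in 14 (46.7%), against 56.1% of such genes overall.

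Mitochondrial chaperones had a median difference of 0.14 over 13 probe sets, with values between -0.22 and 0.32. The chaperonin Hspd1 (HSP60) read 4548 and 4567 on the controls and 5329.6 and 3919.9 on the TCDD arrays (0.004 ± 0.32), and its partner Hspe1 (HSP10), encoded next to it from a shared promoter region, read 4294 and 3641 on the controls and 4511 and 4732 on the TCDD arrays without overlap (0.22 ± 0.32). Hspd1 was highest on TCDD 1 and lowest on TCDD 2, whereas this Hspe1 probe set, its brightest, was highest on TCDD 2. In these probe sets both genes thus differed in how they ordered the arrays, with every difference smaller than its SE. The other tested Hspe1 probe set, 1422579_at, overlapped between groups, at 845 and 677 on the controls and 826.5 and 835 on the TCDD arrays (0.14 ± 0.34).

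Small heat shock proteins were represented by 5 tested probe sets, 1 for each of 5 genes, with a median difference of 0.15. Hspb1 (HSP25), the stress-inducible member, read 327 and 400.0 on the controls and 374 and 247 on the TCDD arrays (-0.25 ± 0.37). Hspb2 was dim at 147 and 148 on the controls and 166 and 195 on the TCDD arrays, higher with TCDD without overlap (0.29 ± 0.41), and Hspb7 read 126 and 126 on the controls and 118 and 165 on the TCDD arrays (0.15 ± 0.45); both are best known from muscle. Hspb8, a partner of the autophagy adaptor Bag3, read 66.6 and 177 on the controls and 179.9 and 145 on the TCDD arrays, with control 1 apart from the rest (0.57 ± 0.53). Hspb11, which is also a subunit of the intraflagellar transport machinery, read 690.1 and 638 on the controls and 606 and 752 on the TCDD arrays (0.03 ± 0.35). Across all roles, 13 of the 15 genes with a heat shock element in the promoter window were tested, and in their brightest probe sets TCDD lay above the controls in 1 of the 13, Hspe1, and below in 0, against 11.4% and 14.1% of all genes.

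**Figure D3:**
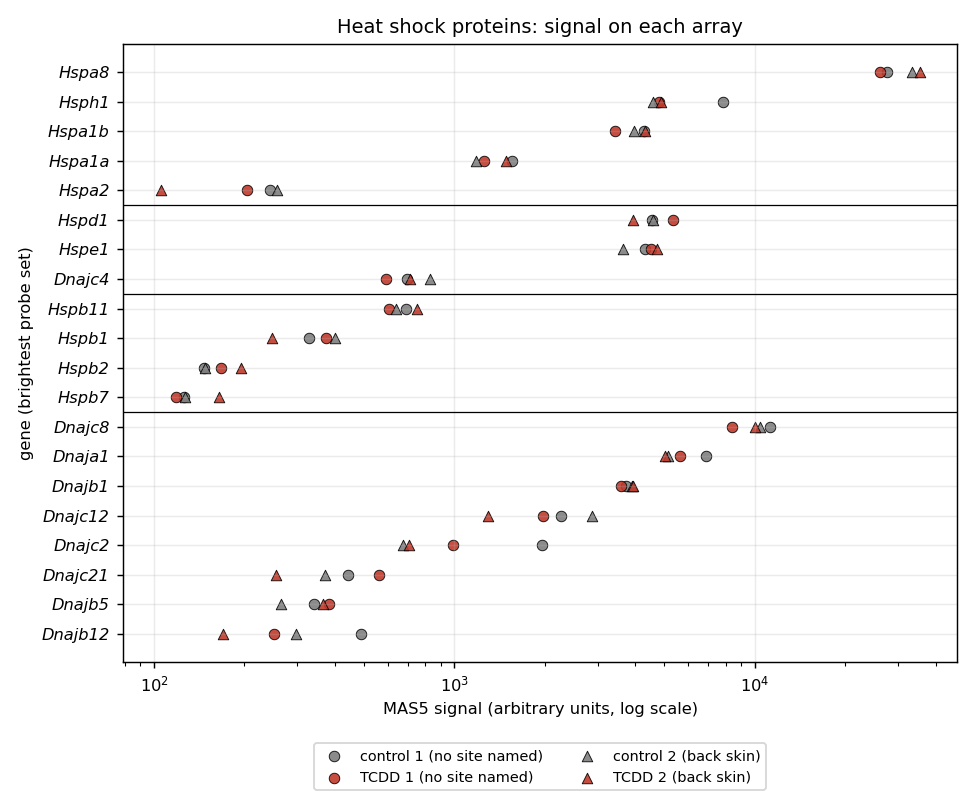
MAS5 signal (arbitrary units, log scale) of heat shock protein genes on each of the 4 arrays, 1 point per array for the brightest probe set of each gene; lines separate, from the top, HSP70 and HSP110, mitochondrial, small heat shock protein and J-domain genes. Grey points are controls, red points TCDD, circles no named site and triangles back skin; for the inducible Hspa1a, Hspa1b and Dnajb1 red and grey points overlap, and for Dnajb12 both red points lie left of both grey ones.

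The TCDD ratio often had opposite signs in the preparations. This held for 69 of 109 members (63.3%) and for 59.3% of all tested probe sets. With a log2 ratio of at least 0.5 both ways it held for 8 members (7.34%), against 8.77% of all. In 7 of these 8, TCDD 1 was above its control and TCDD 2 below its own, as in 792 of the 1191 such probe sets overall. Ddit3 is an example, with log2 ratios of 0.79 without a named site and -0.83 in back skin. The cytosolic co-chaperone Dnajb4 had ratios of 0.64 without a named site and -1.03 in back skin. Of the tested markers, 4 of 6 for T cells (Cd3e, Cd3g, Thy1 and Klrk1) and 3 of 11 for Langerhans cells (Cd207, Cdh1 and H2-Eb1) were higher on TCDD 1 and control 2 than on both other arrays. The share of all tested probe sets in this order is not given here, so neither count can be set against a background. Other Langerhans cell markers did not follow this order, among them Epcam at 8717 and 10032 on the controls and 7541 and 8362 on the TCDD arrays and Csf1r at 11348 and 11699 on the controls and 8469 and 9376 on the TCDD arrays, and neither did the T cell marker Zap70 at 875 and 759 on the controls and 857 and 948 on the TCDD arrays. The part of cell composition in these members was not tested. In such bulk samples, fewer cells of a type and less RNA per cell cannot be told apart.

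**Figure D4:**
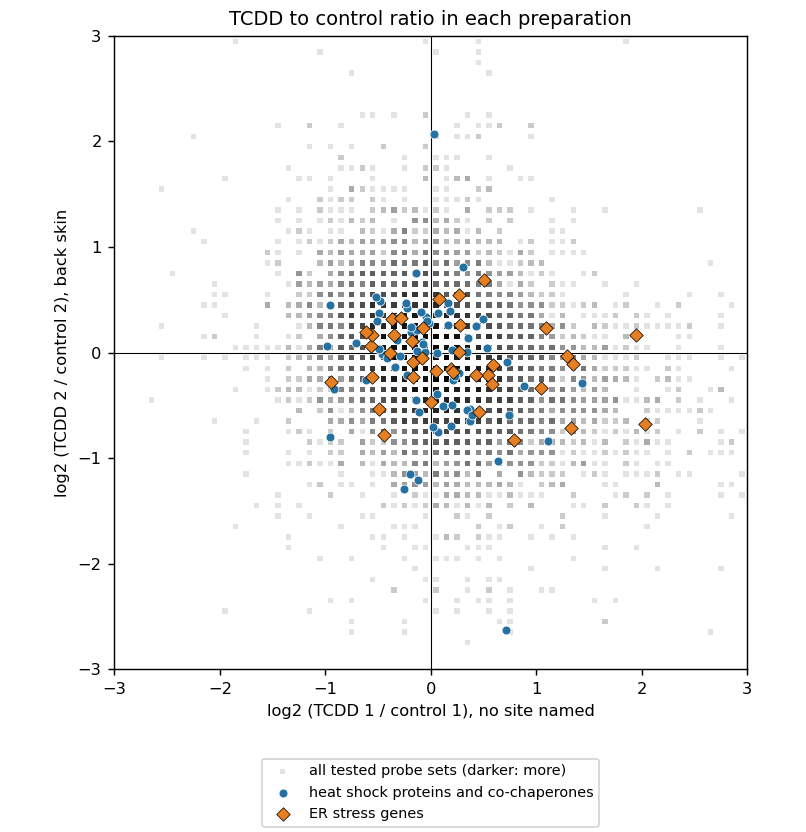
Log2 ratio of TCDD to control in the preparation without a named site (horizontal axis) against that in back skin (vertical axis); each blue or orange point is a tested member probe set, and grey squares show the density of all tested probe sets in bins, darker for more. Axes end at 3 on the log2 scale, which leaves out 40 tested probe sets and 0 members; 69 of 109 members lie in the upper left and lower right quadrants, where the ratios differ in sign.

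Leaving out control 2, whose labels conflict, compares control 1 with both TCDD arrays and takes the single control to vary like the other arrays. A fit without 1 control has no term for preparation. The control kept comes from a single preparation and the TCDD arrays from both, so part of any difference between preparations enters the TCDD difference. In that fit 2.1% of all tested probe sets passed an adjusted p under 0.05 in limma, and 2 of 109 members did. These were Xbp1 probe set 1420011_s_at, with a difference of 1.75 and an adjusted p of 0.00378, and Hsp90b1 probe set 1438040_a_at, with a difference of 1.58 and an adjusted p of 0.0179. Both are among the 4 members in which control 1 stood at least 2-fold below all other arrays. Leaving out control 1 instead, 0.0884% of all probe sets passed and 1 member did, Hspa4 probe set 1416147_at, with a difference of 2.22 and an adjusted p of 0.0482 in limma. There control 2 is the only control and is itself the low array. The calls therefore followed which control was kept, and no member passed in both fits.

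Control 1 was the array that most often stood apart, at least 2-fold below every other array in 4 members (3.67%, against 3.03% of all probe sets) and so far above in 0 members (0.28% of all). TCDD 1 was so far above in 0 members (0.103% of all) and so far below in 0 (0.309%). Control 2 was above in 0 (0.273%) and below in 1 (0.766%), which is Hspa4 1416147_at. TCDD 2 was above in 0 (0.0663%). Without regard to size, control 1 was the highest array in 35 members (32.1%, against 27.6% of all probe sets) and the lowest in 27 (24.8%, against 31.7%), and TCDD 2 was the lowest in 34 (31.2%, against 25.2%).

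Between preparations, 65 of the 109 members (59.6%) had a lower fitted value in back skin, against 48.5% of all tested probe sets, and this difference in shares was not tested. No member passed an adjusted p under 0.05 in limma, where 0.0% of all tested probe sets were called and the smallest adjusted p was 0.9994. At an unadjusted p under 0.05 there were 3 members, all lower in back skin, and 274 of all probe sets, 142 higher and 132 lower. The median difference, back skin minus no site named, was -0.076 for the members and 0.013 for all probe sets. It was 0.009 between the controls and -0.157 between the TCDD arrays, and lay between -0.119 and -0.02 when single arrays were left out, -0.119 without control 1. Both back skin arrays were below both others in 22 of 109 members (20.2%), against 15.9% of all probe sets, and above in 9 (8.26%), against 16.1%. With each array centred on its median, the split was 27 below and 4 above, against 18.9% and 12.8% of all probe sets, and with quantile normalisation 28 below and 6 above, against 17.1% and 15.3%. The marker lists had higher medians in back skin, 0.23 for Langerhans cells, 0.29 for T cells, 0.21 for keratinocytes, 0.24 for melanocytes, 0.35 for fibroblasts and endothelium and 0.54 for mast cells and granulocytes. The keratinocyte gene Krt5 read 83.7 and 72.5 without a named site and 212 and 156 from back skin (1.22 ± 0.47). The other tested keratinocyte markers were divided, with differences of -0.73 for Dsp, -0.34 for Krt10, 0.22 for Krt14 and 0.21 for Lor. Control 1, with the high 3′ to 5′ ratios, belongs to the preparation without a named site, and the part of cell composition and RNA quality in the preparation differences was not tested.

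Hspa5 was lower in back skin in both of its probe sets. The brighter one read 14504 and 9865 without a named site and 7333 and 8224 from back skin, a difference of -0.62 ± 0.32 (95% interval -1.34 to 0.10). The other read 2306 and 2032 without a named site and 1057 and 1137 from back skin, a difference of -0.98 ± 0.34 with an unadjusted p of 0.019. Hsp90b1 read 1187 and 1432 without a named site and 688 and 1002 from back skin in its brighter probe set (-0.65 ± 0.34), but the other probe set gave 0.44 ± 0.57. Dnajc3 was lower in back skin without overlap in 2 of its 4 probe sets, at 1159 and 1105 without a named site and 824 and 966 from back skin for the brightest (-0.34 ± 0.34). Among the ER chaperones and folding enzymes, only Pdia4 was higher in back skin without overlap, at 137 and 89.8 without a named site and 146 and 167 from back skin (0.49 ± 0.46).

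Outside the ER, Dnajc2 had the largest such difference of a brightest probe set, 1952 and 986 without a named site and 673 and 704 from back skin (-1.01 ± 0.38, unadjusted p 0.029). Its signal was highest on control 1, almost level between the back skin arrays, and in between on TCDD 1. Dnajc21, a co-chaperone of ribosome assembly, read 441 and 560.4 without a named site and 372 and 255 from back skin (-0.69 ± 0.37), and Dnaja1 6880.5 and 5634 without a named site and 5140.3 and 5022 from back skin (-0.29 ± 0.31). The third member with an unadjusted p under 0.05 was Hspa4 1416147_at, -1.30 ± 0.51. The mitochondrial HSP70 Hspa9 was lower in both probe sets, with differences of -0.51 ± 0.35 and -0.55 ± 0.38. In the other direction, Hspa8 read 27641 and 26176 without a named site and 33407 and 35329 from back skin (0.35 ± 0.25), although its other 3 probe sets gave values between -0.27 and -0.01. Dnajc4 read 693 and 592 without a named site and 828 and 712 from back skin (0.26 ± 0.34), and Hspb7 126 and 118 without a named site and 126 and 165 from back skin (0.24 ± 0.45).

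By role, beside the 48.5% of all tested probe sets, back skin was lower in 15 of 18 probe sets of the cytosolic HSP70 and HSP110 genes (median difference -0.15), in 9 of 13 mitochondrial (-0.15), in 22 of 35 cytosolic J-domain (-0.12), in 11 of 18 ER chaperone (-0.09) and in 5 of 8 degradation probe sets (-0.02). The ER stress sensors and transcription factors lay the other way, lower in 2 of 12, with a median of 0.29, and 4 of these 12 values came from Xbp1. Control 1 was the lowest array in every tested probe set of Xbp1, Atf4, Ddit3, Ern1 and Trib3. It was the highest in those of Atf6 and Eif2ak3. Over all tested probe sets control 1 was the lowest array in 31.7%. The part of control 1 in the median of this role was not tested. Small heat shock proteins were lower in 1 of 5 (median 0.12).

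**Figure D5:**
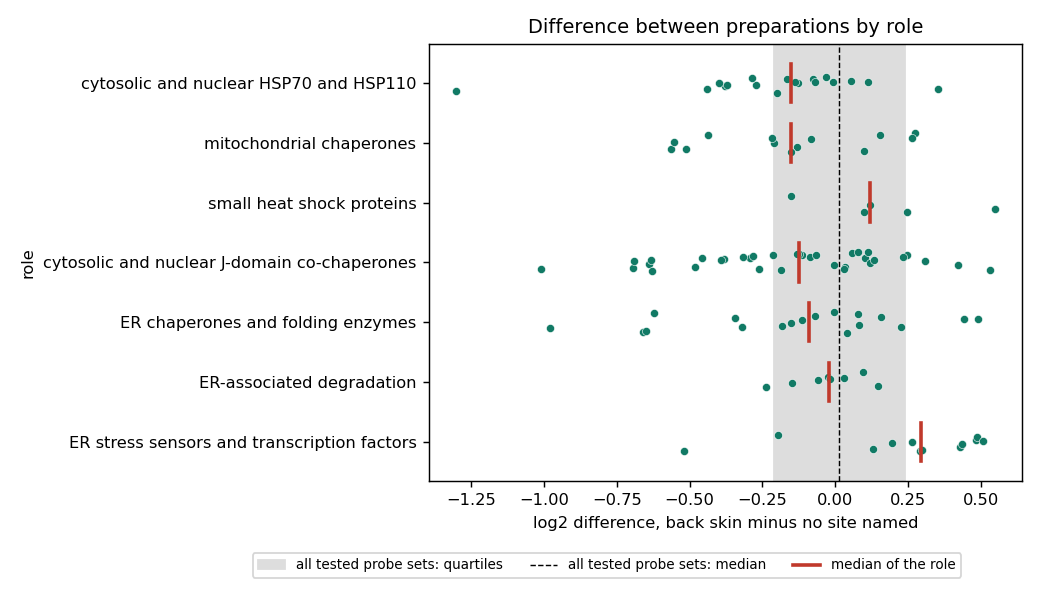
Log2 difference between preparations, back skin minus no site named, for each tested member probe set by role (1 point each, spread vertically at random), with the median of the role in red. The grey band shows the quartiles of all 13576 tested probe sets, -0.21 and 0.24, and the dashed line their median, 0.013; the medians of the HSP70 and mitochondrial roles lie left of that line at -0.15 and that of the sensors and transcription factors right of it at 0.29.

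Genes of the same pathways outside the rule were read from lists. Of 24 listed genes of the cytosolic heat shock response, among them HSP90, its co-chaperones and the TRiC chaperonin, 20 were measured and 19 tested, and 0 passed for TCDD in limma (0 also at an unadjusted p under 0.05). TCDD lay above the controls in 1, Ahsa1, an activator of the HSP90 ATPase, at 2524 and 3192 on the controls and 3562 and 4621 on the TCDD arrays (0.52 ± 0.32), and below in 0, and the median difference was -0.04. Over all genes the shares were 11.4% above and 14.1% below. Back skin lay below in 8 of the 19 and above in 1, the HSP90 co-chaperone Fkbp4 (0.91 ± 0.34), against 16.6% each way over all genes, with a median of -0.20. Bag3, a heat-inducible HSP70 co-chaperone, read 1346 and 630.5 without a named site and 562 and 552 from back skin (-0.72 ± 0.39), so that control 1 alone was high. Cct8, a TRiC subunit, read 2222 and 1447 without a named site and 906 and 1092 from back skin (-0.85 ± 0.37), and Chordc1, an HSP90 co-chaperone, 9221 and 6909 without a named site and 6384 and 5424 from back skin (-0.44 ± 0.30).

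Of 34 listed genes of the unfolded protein response outside the rule, 31 were measured and 30 tested, and in limma 0 passed for TCDD, adjusted or not. TCDD lay above in 4 (Manf, Derl2, Vcp and Chac1) and below in 3 (Hyou1, Wfs1 and Nars), against 11.4% and 14.1% of all genes, with a median difference of 0.03. Hyou1, an ER HSP110, read 629.7 and 535 on the controls and 419 and 458 on the TCDD arrays (-0.41 ± 0.34), and Manf, a secreted ER stress factor, 886 and 798 on the controls and 1101 and 916 on the TCDD arrays (0.26 ± 0.34). Chac1, a target of ATF4 and CHOP, read 533 and 558 on the controls and 561 and 659.6 on the TCDD arrays (0.16 ± 0.34), and Atf3, which also responds to ATF4, 2240 and 1447 on the controls and 1297 and 1699.9 on the TCDD arrays (-0.28 ± 0.38). Calreticulin (Calr) read 979.6 and 1856 on the controls and 2059 and 1583 on the TCDD arrays, low on control 1 as Xbp1 was (0.42 ± 0.40). Back skin lay above in 7 and below in 4 of the 30, against 16.6% each way over all genes, with a median of 0.10.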

How the data were processed

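Per the submitters' processing notes, the signals were made with the affy package and MAS5. Versions of both were not given in the sources used here, nor were detection calls. The deposited values are MAS5 intensity values on a linear scale, 1 column per array, with a trimmed mean of 500.0 on each array. Gene symbols come from the platform annotation. Of 22626 probe sets without the 64 control probe sets, 20380 had a single symbol, 691 several and 1555 none, and all 149 member probe sets matched a RefSeq gene by gene ID with 0 symbols updated.

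Signals were taken as log2, with no further normalization. Probe sets at or above the 40th percentile of mean log2 signal (6.85) were tested together in limma 3.58.1 (R 4.3.3; lmFit, then eBayes with a trend) with treatment and preparation as terms, and p-values were adjusted by Benjamini-Hochberg at 0.05. The code was tested on simulated data. A fit without 1 array drops the other term and leaves 3 arrays. Array precision is limited by the number of arrays.

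Genes are represented by their brightest probe set. Genes named with values are a list of stress genes, those of the 6 widest gaps in each direction for TCDD, of the 4 largest differences in each direction for preparation among those without overlap, and the 2 brightest of each role. Further probe sets and genes were named after their values were seen. The members, roles, pathway lists and marker lists were chosen with earlier results of these data known. Promoters are from the RefSeq table of GRCm38.p6.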

Additional observations from a re-analysis of the deposited data

Results flagged for a closer look

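In 8 member probe sets the TCDD ratio had opposite signs in the preparations, with a log2 size of at least 0.5 in each. The difference between preparations was not tested, because each preparation has 1 TCDD and 1 control array. The log2 ratio without a named site minus that in back skin was 3.34 for Dnajb5 (1421962_at), 2.71 for Hsp90b1 (1438040_a_at), 2.04 for Trib3 (1426065_a_at), 1.95 for Dnajc5 (1448850_a_at), 1.67 for Dnajb4 (1451177_at), 1.62 for Ddit3 (1417516_at) and 1.33 for Hspa14 (1417095_a_at). It was -1.05 for Dnajc5 (1460498_a_at), the single member with the reverse pattern. The 2 Dnajc5 probe sets, which measure a co-chaperone of synaptic and secretory vesicles, thus lay in opposite directions. The brightest Dnajc5 probe set, 1436180_at, was just short of the bound and not among the 8. Its log2 ratios were -0.48 without a named site and 0.49 in back skin, with the same signs as those of 1460498_a_at. For the brighter Hsp90b1, Trib3 and Dnajb5 probe sets the ratios had the same sign in both preparations.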

How the results depend on the processing

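No member passed for TCDD in limma under quantile normalization, median centring, no filter, a filter at the 60th percentile, an offset of 50, no variance trend, no preparation term or 1 probe set per gene, and no setting called a member between preparations. Leaving out single arrays gave 0 to 2 member calls and 0 to 285 calls over all probe sets for TCDD, and 0 to 89 over all probe sets for preparation, the 89 without TCDD 1 holding 0 members. The median member difference for TCDD ranged from -0.093 to 0.048 without single arrays and was -0.058 with 1 probe set per gene. Without single arrays, 28 to 39 members lay above without overlap and 26 to 42 below, since 3 arrays overlap less easily. For 3 arrays the share of all tested probe sets is not given here, so neither range can be set against a background. The counts were 10 and 8 with 1 probe set per gene, where fewer probe sets are counted. Of 38 named genes, 18 kept their sign in every setting that gave a value, 15 of them in all 12, and 20 turned in at least 1; the cause was not tested. Ern1, Hspa2, Hspb2, Hspb7 and Pdia4 were too dim for the filter at the 60th percentile. Under median centring Hspa8 was -0.004 and Hspd1 -0.001. Without single arrays the log2 difference for TCDD ranged as follows: Hspa1a -0.192 to 0.207, Hspa1b -0.264 to 0.07, Hspa5 -0.687 to 0.297, Hspa8 -0.215 to 0.217, Hspd1 -0.217 to 0.226, Hsph1 -0.698 to 0.077, Dnaja1 -0.371 to 0.049, Dnajb1 -0.093 to 0.039, Dnajc3 -0.167 to 0.326, Pdia4 -0.655 to 0.241, Atf6 -0.316 to 0.138, Ddit3 -0.669 to 0.622, Sel1l -0.195 to 0.062, Syvn1 -0.128 to 0.342, Hspb7 -0.095 to 0.386, Dnajc2 -1.229 to 0.307, Dnajc21 -0.669 to 0.468, Dnajc1 -0.285 to 0.238, Hspb11 -0.13 to 0.182 and Hspb1 -0.549 to 0.048.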
